A study of Drosophila melanogaster with 3 samples.

Results

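The regions described here are SMARCAD1 peaks that covered the start of at least 1 gene, covered starts on a single strand, held no whole gene and shared at least 1 bp with a CBP peak. They are called shared start peaks below. On the arms 2L, 2R, 3L, 3R and X there were 3036 SMARCAD1 peaks. Of these, 814 covered starts of a single strand without a whole gene, and 513 of the 814 were shared with CBP (63.0%, Wilson 95% interval 59.7 to 66.3%). The overlap with CBP that selected them is thus a measured value, and it is given as a description only. Of the 2222 other SMARCAD1 peaks on these arms, 1334 shared at least 1 bp with CBP (60.0%, 58.0 to 62.1%), so the shared proportion was close in both sets. The remaining 301 same-strand start peaks of SMARCAD1 are called SMARCAD1-only, and 504 CBP peaks chosen by the same rule in the CBP table and without any SMARCAD1 overlap are called CBP-only.

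The peaks came from ChIP-seq of S2 cells, a haemocyte-like cultured line of Drosophila melanogaster. All 3 samples of the series, an input, an anti-SMARCAD1 (ASNA) ChIP with custom-made antibodies and an anti-CBP ChIP, were from cells given EGFP dsRNA as a nonspecific control for 6 h at 26 °C without serum and kept for 72 h after serum was added. Chromatin was cross-linked with formaldehyde, digested with MNase and sonicated. There was 1 library per antibody, no untreated cells and no replicate, and the tables hold no read counts or peak strengths, so the depth is unknown and nothing was tested. Intervals for proportions and medians treat peaks as independent and cover counting error only.

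SMARCAD1, the product of Etl1, is a remodeller of the Snf2 family, which uses ATP to move or restructure nucleosomes. CBP, the product of nej, is a co-activator that acetylates histones and is brought to promoters and enhancers by transcription factors. The start of a gene is where RNA polymerase II begins, and nucleosomes on either side of it are remodelled and acetylated at many active genes. The study mapped both proteins in these cells and placed their peaks relative to gene starts.

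The 513 shared start peaks covered the starts of 519 genes, since 507 covered 1 start and 6 covered 2. The peaks with 2 starts lay at CG31919, CG15908, Tsp42Ea, CG14502, CG14906 and CG14425. There were 64 shared start peaks on 2L, 104 on 2R, 98 on 3L, 113 on 3R and 134 on X, and 252 of the genes were on the plus strand (49.1%). The shared proportion of same-strand start peaks ran from 53.3% on 2L (44.4 to 62.0%) to 68.5% on 3L (60.5 to 75.6%), with overlapping intervals. A single CBP peak was met by 483 shared start peaks, 2 CBP peaks by 27, and 3 CBP peaks by 3, at CG5060, CG31324 and CG32699. For each, the CBP peak with the longest overlap was taken as the partner. CBP widths and reaches at shared start peaks are those of the partner alone. One partner served a pair of SMARCAD1 peaks, those at Dp1 and imd, which begin on opposite strands under a CBP peak 4116 bp wide.

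The overlap that chose the peaks was rarely marginal. The smallest overlap was 38 bp, at CG3814, and the next were 625 bp at CG42271 and 644 bp at FucT6, a fucosyltransferase gene. Just outside the rule, the nearest CBP peak lay 76 bp away at CG18811, 96 bp at PEK, which encodes an eIF2 alpha kinase, and 110 bp at CG3732. The median gap of the SMARCAD1-only peaks to a CBP peak was 4778 bp, and 36 of the 301 had a gap of at most 1000 bp. The median overlap of the shared start peaks was 1490 bp (95% interval 1381 to 1594 bp), or 81.0% of the SMARCAD1 peak (79.3 to 82.7%).

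SMARCAD1 peaks were the wider of the pair. Their median width was 2073 bp (1868 to 2252 bp, quartiles 1362 and 3172 bp), against 1594 bp for the CBP partners (1519 to 1714 bp, quartiles 1057 and 2472 bp). The widest SMARCAD1 peak was at Tpr2, a gene for a co-chaperone, and measured 9126 bp (2L:16489511-16498636), while its CBP partner measured 4661 bp. Next came Stat92E, the transcription factor of the JAK/STAT pathway, with 9089 bp of SMARCAD1 and 8664 bp of CBP (SMARCAD1 peak 3R:16369593-16378681). At Pep, which encodes a protein of hnRNP particles, 8710 bp of SMARCAD1 stood over 2167 bp of CBP. The narrowest SMARCAD1 peaks were 754 bp at Gap69C, an ArfGAP gene, 847 bp at CG6621 and 867 bp at CG10932, with CBP partners of 655, 774 and 805 bp. Wide SMARCAD1 peaks thus stood over CBP peaks of very different width, from nearly the whole SMARCAD1 peak at Stat92E to a small part of it at Pep. Over all 513 pairs, Pearson's r of the widths was 0.72 and Spearman's rho 0.79. These are descriptions across peaks of 1 library each, which share the input and the peak caller.

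Measured from the gene start, the median reach of both proteins was longer upstream than downstream. The upstream reach, the distance from the start to the outer edge of the peak, had a median of 1000 bp for SMARCAD1 (929 to 1077 bp) and 768 bp for CBP (717 to 811 bp). The downstream reach into the gene was 704 bp for SMARCAD1 (618 to 851 bp) and 569 bp for CBP (516 to 681 bp). The peak centre was upstream of the start in 311 of 513 SMARCAD1 peaks (60.6%, 56.3 to 64.8%), at a median of -128 bp (-183 to -89 bp), where negative values are upstream. The CBP centre had a median of -97 bp (-126 to -52 bp), within an interval that overlaps that of SMARCAD1. The upstream position was not equally clear in every subset. Peaks holding a whole gene were left out, so gene length limited the downstream reach. The longer upstream reach held in the shorter genes, described below. In the longest genes the SMARCAD1 reach was 1077.5 bp upstream and 1535.5 bp downstream. At the 261 genes on the minus strand the intervals of the centres held 0, with -89 bp for SMARCAD1 (-139 to 44.5 bp) and -52 bp for CBP (-112 to 24 bp), and 54.4% of SMARCAD1 centres were upstream (48.3 to 60.3%). The spread between genes was far larger than either offset, with SMARCAD1 centres from -3549 to 3897 bp and quartiles of -416.5 and 301 bp. SMARCAD1 and CBP reaches of a gene went together, with r = 0.77 and rho = 0.73 upstream and r = 0.76 and rho = 0.83 downstream.

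**Figure D1:**
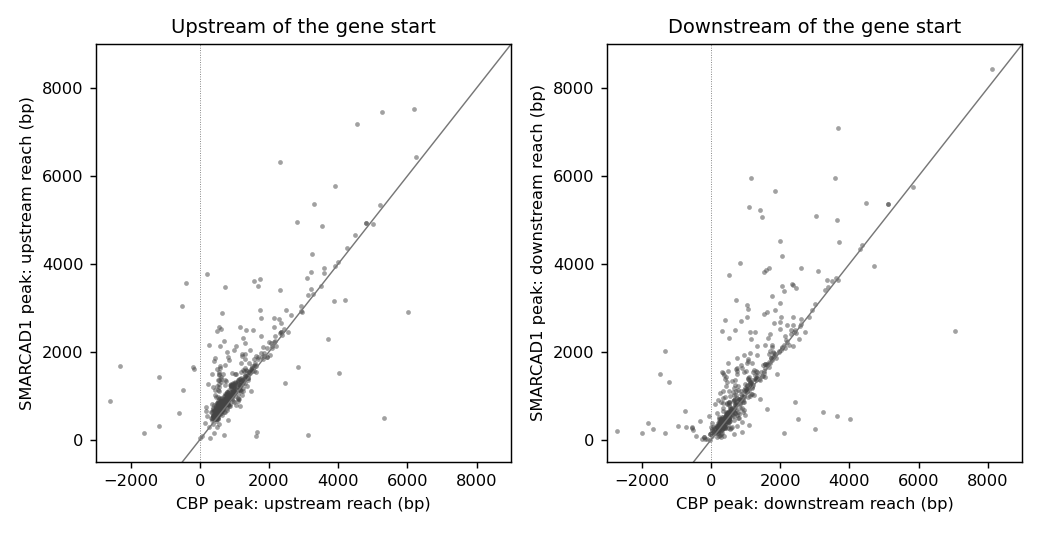
Upstream reach (left) and downstream reach (right) in bp of the SMARCAD1 peak against its CBP partner, 1 point per shared start peak, with the line of equal reach. Most of the 513 points lie above the line, 447 upstream and 393 downstream, and points left of the dotted line at 0 are genes whose start the CBP peak did not cover.

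The CBP partner covered the same start in 476 of 513 pairs (92.8%, 90.2 to 94.7%). In the other 37 it stopped short of the start, with 26 CBP peaks upstream and 11 downstream of it. When classed in its own table, the CBP partner was itself a same-strand start peak in 462 pairs (90.1%). The other 51 partners are accounted for by 19 inside a gene, 14 outside genes, 10 over divergent starts, 6 that held a whole gene and 2 at a gene end. At CG9005, for example, the SMARCAD1 peak ran from 3556 bp upstream to 2637 bp downstream of the start, and the CBP peak began 409 bp inside the gene. At CG3814 the reverse was seen, with the CBP peak wholly upstream and ending 1480 bp before the start.

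In most pairs the CBP peak lay wholly within the SMARCAD1 peak. This held for 351 of 513 pairs (68.4%, 64.3 to 72.3%), while the SMARCAD1 peak lay within the CBP peak in 20 (3.90%, 2.54 to 5.94%). The SMARCAD1 peak was shifted upstream of CBP at both edges in 96 pairs (18.7%, 15.6 to 22.3%) and downstream in 46 (8.97%, 6.79 to 11.8%), and no pair was identical at both edges. Nesting was not particular to these starts. Among the 1334 other shared SMARCAD1 peaks, the CBP peak was within the SMARCAD1 peak in 869 (65.1%, 62.6 to 67.6%), an interval that overlaps the one above.

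A margin of SMARCAD1 beyond CBP was present on both sides of the start and was larger upstream. The SMARCAD1 edge lay 151 bp further upstream than the CBP edge in the median (140 to 165 bp) and 102 bp further downstream (87 to 118 bp). In the other shared pairs, where edges were read from left to right on the chromosome without regard to any gene, the medians were 119 bp on the left (112 to 129 bp) and 119 bp on the right (110 to 133 bp). The upstream margin of the shared start peaks was thus larger than this, while the interval of the downstream margin overlapped these intervals. The rule barred SMARCAD1 peaks, but not their CBP partners, from holding a whole gene or covering starts on both strands. The part of this rule in the unequal margins, and in the centre difference below, was not tested. SMARCAD1 reached further upstream than CBP by more than 119 bp in 313 of 513 pairs (61.0%) and further downstream by more than 119 bp in 232 (45.2%). When 119 bp were taken off each end of the SMARCAD1 peaks, a comparison chosen after seeing the data, the CBP peak stayed within the SMARCAD1 peak in 142 pairs (27.7%, 24.0 to 31.7%), and the shortened SMARCAD1 peak was within the CBP peak in 108 (21.1%). Most of the nesting therefore lay within a margin of that size at 1 or both edges. Peaks of other kinds had a margin of that size as well, and its part in the nesting at the starts was not tested further.

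**Figure D2:**
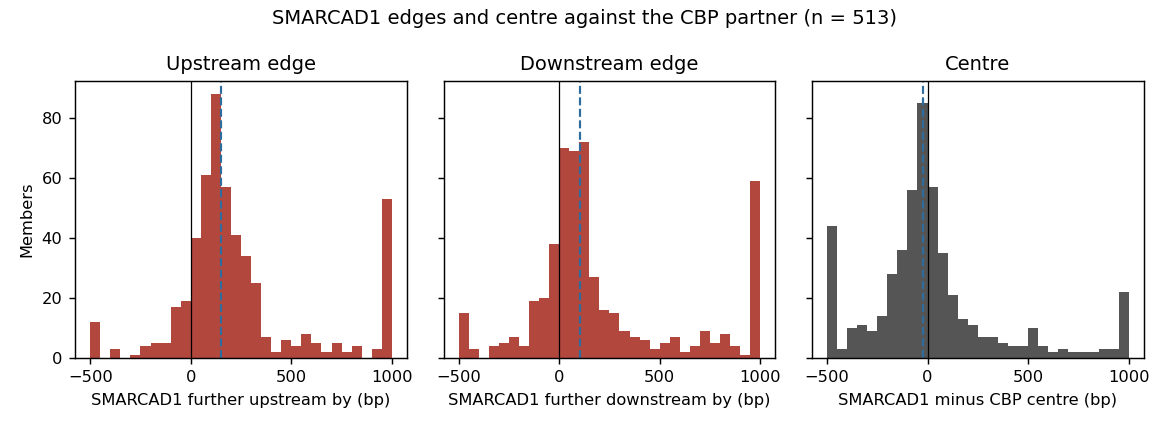
Number of shared start peaks by the distance in bp that SMARCAD1 reached beyond its CBP partner at the upstream edge (left) and the downstream edge (middle), and by the difference of the centres (right, negative when SMARCAD1 was more upstream). Dashed lines mark the medians of 151, 102 and -23 bp, and the first and last bars also hold every pair beyond the axis.

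With these unequal margins, the SMARCAD1 centre lay a little upstream of the CBP centre. The median difference was -23 bp (-36.5 to -9 bp), with SMARCAD1 more upstream in 296 pairs (57.7%, 53.4 to 61.9%), more downstream in 216 (42.1%) and level at CG8311. The quartiles of -130 and 91 bp fell on both sides of 0, and the centres were within 200 bp of each other in 331 pairs (64.5%, 60.3 to 68.5%). By chromosome arm, the median difference was -45.5 bp on X (-79.5 to -18.5 bp), -30 bp on 3L (-70 to -5 bp), -24.5 bp on 2R (-79 to 0.5 bp), -12.25 bp on 2L (-48.5 to 52.5 bp) and 2 bp on 3R (-20.5 to 33.5 bp). Only on X and 3L did the interval exclude 0. On 2R and 2L the intervals held both 0 and the median of -23 bp over all arms, so they cannot decide on an offset there. On 3R the median had the opposite sign, with an interval that held 0.

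The closest centres, with both peaks over the start, were those at CG8311 (0 bp), Adk2 (0.5 bp), an adenylate kinase gene, and mus308 (-0.5 bp), which encodes DNA polymerase theta. At Adk2 the SMARCAD1 peak reached 649 bp upstream and 849 bp downstream, and CBP 511 and 710 bp, so that the margin was nearly the same at both ends. At mus308 the SMARCAD1 reaches were 1382 and 562 bp and those of CBP 1249 and 430 bp. The largest difference was at CG3814, where SMARCAD1 was 2746.5 bp more downstream, and here peaks of 3022 bp (SMARCAD1) and 2547 bp (CBP) lay side by side with an overlap of 38 bp. At stg, the gene for the Cdc25 phosphatase that starts mitosis, the difference was 2436.5 bp, since CBP reached 5329 bp upstream and SMARCAD1 502 bp, while their downstream edges were 1977 and 2023 bp from the start. At Lmpt, which encodes a LIM domain protein, it was 2323.5 bp, since SMARCAD1 reached 5944 bp into the gene and CBP 1163 bp. In the opposite direction, the difference was -2348 bp at Moe, which encodes moesin, a linker of actin to the membrane, where CBP reached 7037 bp into the gene and SMARCAD1 2481 bp. It was -2235 bp at CG12728 and -1960 bp at CG9005. At stg and Moe the longer peak was thus that of CBP, and at Lmpt that of SMARCAD1.

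Shared start peaks differed from SMARCAD1-only start peaks on the side of the gene body. The downstream reach of the SMARCAD1 peak was 704 bp (618 to 851 bp) in the shared set and 372 bp (344 to 399 bp) in the SMARCAD1-only set, while the upstream reach was 1000 bp (929 to 1077 bp) and 946 bp (865 to 1020 bp), with overlapping intervals. A downstream reach of more than 1000 bp was found in 210 of 513 shared start peaks (40.9%, 36.8 to 45.2%) and in 41 of 301 SMARCAD1-only peaks (13.6%, 10.2 to 18.0%). The corresponding upstream proportions were 49.9% and 46.8%. The centre of the SMARCAD1-only peaks lay at -258.5 bp (-296 to -223 bp), upstream of the start in 248 of 301 (82.4%). The SMARCAD1-only peaks were narrower, with a median of 1437 bp (1344 to 1529 bp). A wider peak has more length over which to meet a CBP peak, so widths and reaches are not independent of the rule, and these differences are descriptions.

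**Figure D3:**
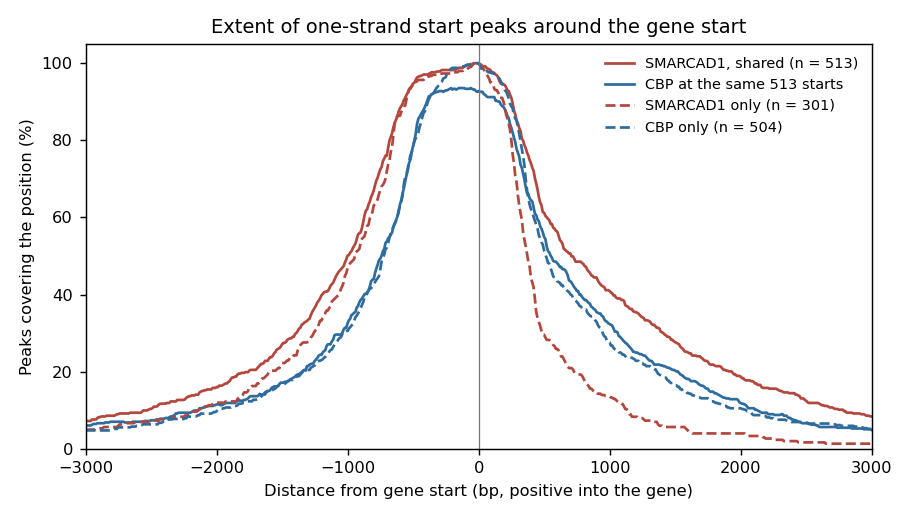
Percentage of peaks that covered each position from 3000 bp upstream to 3000 bp downstream of the gene start, for SMARCAD1 and CBP at the 513 shared start peaks (solid lines), and for the 301 SMARCAD1-only and 504 CBP-only peaks (dashed lines). At 1000 bp into the gene, 40.9% of shared SMARCAD1 peaks, 32.4% of their CBP partners, 27.6% of CBP-only peaks and 13.6% of SMARCAD1-only peaks still covered the position.

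The median extents of the CBP partners at these starts had intervals that overlapped those of CBP-only start peaks, although the sets were not chosen alike. The CBP-only peaks had a median width of 1416.5 bp (1286 to 1559 bp), an upstream reach of 723.5 bp (681 to 757 bp) and a downstream reach of 513 bp (471 to 563 bp). The partners had a median width of 1594 bp (1519 to 1714 bp) and reached 768 bp upstream and 569 bp downstream. The intervals of the width and of both reaches overlapped those of the CBP-only peaks. The CBP-only centre of -71.5 bp (-99.5 to -46 bp) also overlapped that of the partners. All CBP-only peaks covered a same-strand start and held no whole gene, while the partners were taken by longest overlap. Of the 513 partners, 462 were same-strand start peaks in their own table. In 37 pairs the partner missed the start, so that a reach entered as a negative value. The part of these differences in the partner medians was not tested. Whether shared and unshared peaks differed more for SMARCAD1 than for CBP was not tested either.

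Genes with a shared start peak were longer than those with a SMARCAD1-only peak, with a median length of 3583 bp (3228 to 3963 bp) against 2365 bp (2111 to 2669 bp). CBP-only genes had 3982 bp (3452 to 4484 bp). The 814 same-strand start peaks of SMARCAD1 were therefore divided into 4 groups of equal size by gene length, after the data had been seen. The proportion shared with CBP was 48.0% (41.3 to 54.9%) in the shortest genes, 62.1% and 65.5% in the middle groups and 76.5% (70.2 to 81.8%) in the longest. In the shortest genes the downstream reach was 408 bp (366 to 433 bp) with CBP and 346 bp (304 to 389 bp) without, and the intervals overlapped. In the next groups it was 559 bp against 348 bp and 1127 bp against 430.5 bp, and in the longest genes 1536 bp (1251 to 1886 bp) against 639 bp (338 to 863 bp), with intervals that did not overlap. The upstream reach of both sets overlapped in all 4 groups. In the shared set it was longer than the downstream reach in the shorter genes. In the third group it was 937 bp (866 to 1100 bp) against 1127 bp downstream (829 to 1461 bp), with overlapping intervals. Only in the longest genes was it shorter without overlap, 1077.5 bp (984 to 1209 bp) against 1535.5 bp downstream. Since peaks over a whole gene were left out, the downstream reach could not exceed the gene length. When the peaks were divided by SMARCAD1 width instead, also after the data had been seen, the proportion shared was 47.1% in the narrowest group and 83.3% in the widest. In the narrowest group the downstream reach was 367.5 bp with CBP (335 to 414 bp) and 326.5 bp without (294 to 352 bp), with overlapping intervals. In the widest it was 2128.5 bp with CBP (1868 to 2436 bp) and 760.5 bp without (455 to 1259 bp), and the upstream reach went the other way, 1585 bp with CBP (1379 to 1893 bp) and 2807 bp without (2336 to 3260 bp). At a given width the reaches on either side trade off, so this division compares the position of the peaks and not their extent.

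**Figure D4:**
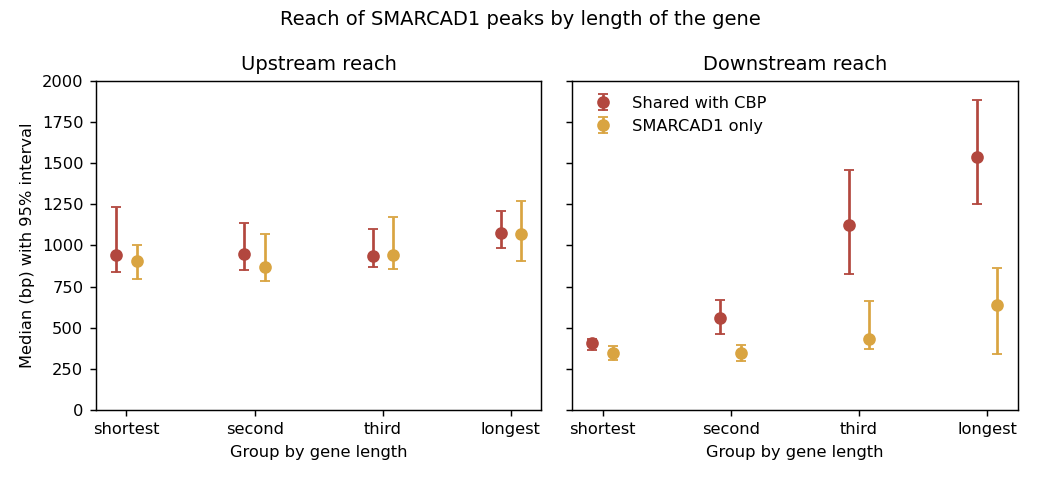
Median upstream reach (left) and downstream reach (right) in bp of SMARCAD1 start peaks with and without CBP, by group of gene length, with 95% binomial intervals of the median. Upstream values lie between 866 and 1078 bp in both sets, while downstream values rise to 1536 bp in the longest genes with CBP and to 639 bp without.

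Many of the starts lay close behind another gene. In 294 of 513 shared start peaks (57.3%, 53.0 to 61.5%), the SMARCAD1 peak also covered the end of a gene on the same strand upstream, at a median of -388 bp from the start (-451 to -350 bp). In 174 of the 294 that end was within 500 bp. The CBP partner covered the same upstream end in 255 of 294 (86.7%, 82.4 to 90.1%). At Rab1, for example, the end of AP-2sigma lay at -100 bp, and at RpL27 the end of CG4774 at -143 bp. The proportion with an upstream end was 61.1% in SMARCAD1-only peaks (55.5 to 66.5%), which overlaps, and 48.8% in CBP-only peaks (44.5 to 53.2%), with an interval that overlaps that of the shared set slightly. Peaks over such a gene pair had a shorter upstream reach, 896.5 bp (867 to 986 bp) against 1204 bp (1016 to 1336 bp) at the 219 other starts, while the downstream reach was 733.5 bp against 665 bp with overlapping intervals. At these starts the signal of an upstream gene end and of a gene start cannot be told apart. The shared, SMARCAD1-only and CBP-only sets all left out peaks over starts on both strands. The rule thus bears on the proportions with an upstream end, and the proportion over all gene starts was not computed.

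Some of the same genes held further peaks. Of the 513 genes nearest to the peak centres, 90 (17.5%, 14.5 to 21.1%) had another SMARCAD1 peak inside, 74 (14.4%, 11.6 to 17.7%) another CBP peak inside, and 57 (11.1%, 8.68 to 14.1%) had both. Another SMARCAD1 peak covered the gene end in 126 (24.6%, 21.0 to 28.5%) and another CBP peak in 82 (16.0%, 13.1 to 19.4%). At the 301 SMARCAD1-only genes, another SMARCAD1 peak was inside in 20 (6.64%, 4.34 to 10.0%) and a CBP peak in 22 (7.31%, 4.88 to 10.8%), and the gene end was covered by another SMARCAD1 peak in 52 (17.3%, 13.4 to 22.0%) and by a CBP peak in 28 (9.30%, 6.51 to 13.1%). Both proportions inside the gene were higher at the shared starts, without overlap of the intervals, and those genes were also longer. At the shared starts, a CBP peak other than the partner counted even when it met the same SMARCAD1 peak. SMARCAD1-only peaks met no CBP peak by definition, so the rule bears on the CBP comparison. Its part in the difference was not tested. For the gene end the intervals overlapped.

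Starts of named gene groups were then counted. A shared start peak covered the start of 505 of 13831 protein-coding genes on the 5 arms, or 3.65%, and this is the background for the counts below. Starts in any SMARCAD1 peak made up 18.0% of these genes, starts in any CBP peak 24.2% and starts in peaks of both 12.7%. In all, 58 listed genes had a shared start peak, and in all 58 the start was also covered by the CBP partner. Several lists have many starts under SMARCAD1 and CBP peaks of every kind, so a count above 3.65% is not particular to the shared start peaks. The chance of each count was not tested.

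Among genes of the actin cytoskeleton and its Rac regulators, 6 of 39 (15.4%, 7.25 to 29.7%) had a shared start peak. They were Arp14D, a subunit of the Arp2/3 complex that branches actin filaments, the actins Act5C and Act42A, Ced-12, the fly ELMO that activates Rac, sqh, the regulatory light chain of myosin, and Moe. At Act5C, SMARCAD1 reached 4961 bp upstream and 2036 bp downstream, and CBP 2810 and 2036 bp, so that both ended at the same base inside the gene. At Act42A both reached far upstream, SMARCAD1 by 2389 bp and CBP by 2391 bp, but only 652 and 590 bp into the gene. Arp14D had a SMARCAD1 reach of 3500 bp upstream against 1675 bp for its CBP partner. The SMARCAD1 peaks at Act5C and Arp14D each met 2 CBP peaks, and the CBP reaches given are those of the partner alone. Ced-12 had a compact pair, in which SMARCAD1 reached 642 and 646 bp and CBP 530 and 362 bp. The group thus held upstream-extended and compact pairs alike. SMARCAD1 peaks of any kind covered 19 of the 39 starts, and CBP peaks 31.

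In the EGFR and Ras pathway, in which a ligand activates the receptor and a kinase cascade, 5 of 27 genes (18.5%, 8.18 to 36.7%) had a shared start peak. One is a ligand, grk, with SMARCAD1 reaches of 852 and 1349 bp and CBP reaches of 716 and 1176 bp. Its role is best known in the germline, and no expression was measured here. The adaptor gene dos had peaks that extended into the gene, by 3091 bp for SMARCAD1 and 2992 bp for CBP. At aop, which encodes the Ets repressor that the pathway inactivates, SMARCAD1 reached 5077 bp and CBP 1473 bp into the gene. The phosphatase genes Mkp3 and puc, whose products turn off ERK and JNK, were also covered. At Mkp3 the downstream reaches were 815 and 761 bp, and at puc 2911 and 1608 bp. The receptor gene Egfr, Ras85D and the kinases of the cascade in the list had no shared start peak. Of the 27 starts, 9 lay in a SMARCAD1 peak of any kind and 15 in a CBP peak.

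Of the genes of the Toll and Imd pathways, which drive antimicrobial responses in haemocytes and fat body, 5 of 30 (16.7%, 7.34 to 33.6%) had one. They comprise the Toll ligand spz, the kinase pll, the peptidoglycan receptor PGRP-LC, the adaptor imd and key, a subunit of the IKK complex. The largest pair was at PGRP-LC, where SMARCAD1 reached 1226 bp upstream and 3686 bp downstream and CBP 1355 and 3604 bp. The smallest was at pll, with 554 and 352 bp against 630 and 226 bp. At spz the SMARCAD1 peak lay mostly upstream, from 2573 bp before the start to 96 bp after it, and CBP reached 1165 and 369 bp. At key the SMARCAD1 peak, with reaches of 518 and 621 bp, lay within the CBP peak, with 531 and 662 bp. The antimicrobial peptide genes of the list had no shared start peak. Over the whole list, 12 of the 30 starts lay in a SMARCAD1 peak of any kind and 17 in a CBP peak.

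S2 cells resemble haemocytes, and 3 of 28 haemocyte genes (10.7%, 3.71 to 27.2%) had a shared start peak, those of the transcription factors ush, zfh1 and Stat92E. Of the 28 starts, only these 3 lay in a SMARCAD1 peak of any kind and 10 in a CBP peak, beside 18.0% and 24.2% of all protein-coding genes. At ush the peaks extended into the gene by 2001 bp for SMARCAD1 and 1980 bp for CBP. At zfh1 they lay upstream, and the SMARCAD1 peak (2079 and 257 bp) was inside the CBP peak (2088 and 351 bp). The peaks of Stat92E reached 8441 and 8119 bp into the gene, the longest downstream reach of both proteins among the shared start peaks. As markers of other cell types, 1 of 12 neuronal genes (elav), 0 of 13 muscle genes and 0 of 11 germline genes had one. The RNA-binding protein gene elav is a marker of neurons, and its peaks reached 1356 bp (SMARCAD1) and 1408 bp (CBP) into the gene. Peaks do not measure expression, so these counts do not check the cell type.

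Rab GTPases direct vesicle traffic, and 4 of 28 (14.3%, 5.70 to 31.5%) had a shared start peak. Rab1 and Rab11, which act in transport from the endoplasmic reticulum and through recycling endosomes, had long downstream reaches, 1965 and 2457 bp in SMARCAD1 peaks and 1816 and 2401 bp in CBP peaks. Rab35 had short downstream reaches, 232 bp in SMARCAD1 and 207 bp in CBP peaks, and those of Rab40 were 808 and 683 bp, near the medians of the shared start peaks. SMARCAD1 peaks of any kind covered 9 of the 28 Rab starts, and CBP peaks 15. Among cell cycle genes, 5 of 40 (12.5%, 5.46 to 26.1%) were covered, namely Cdk4, stg, the Cdk inhibitor gene dap, rap, which encodes the Fzr activator of the anaphase-promoting complex, and Orc6 of the origin recognition complex. Cdk4 had a nearly symmetric pair, in which SMARCAD1 reached 1147 and 1155 bp and CBP 1123 and 1027 bp. At dap, rap and Orc6 the SMARCAD1 centre was more upstream than that of CBP, by differences of -291.5, -168 and -145.5 bp. At Cdk4 and stg it was more downstream, by 52 and 2436.5 bp. Of the 40 cell cycle starts, 11 lay in a SMARCAD1 peak of any kind and 18 in a CBP peak.

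**Figure D5:**
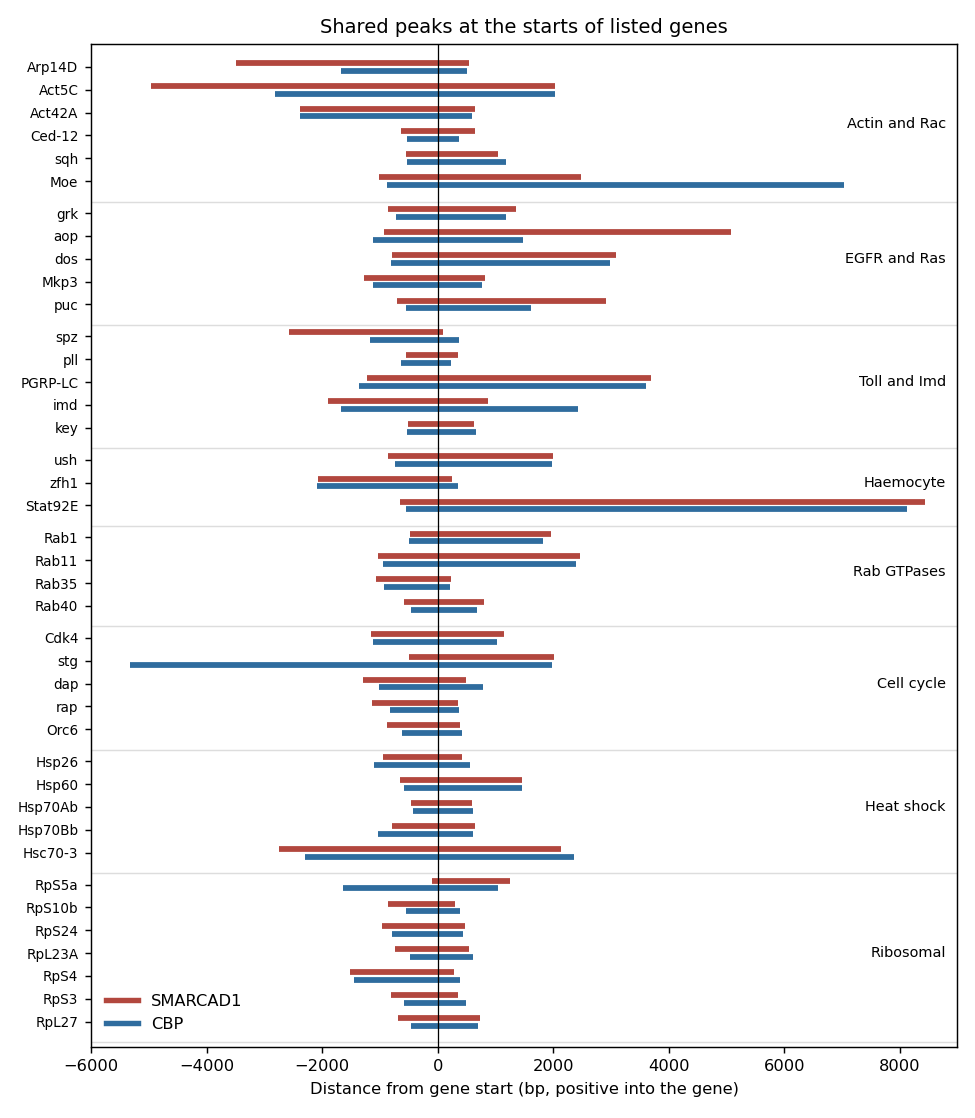
Extent of the SMARCAD1 peak (upper bar) and its CBP partner (lower bar) around the gene start for 8 of the lists, in bp with positive values into the gene. The peaks of Stat92E reach 8441 and 8119 bp into the gene. The CBP partner extends far beyond the SMARCAD1 peak at stg and Moe, and the SMARCAD1 peak far beyond its partner at aop. Other peaks of these genes are not drawn.

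Heat shock genes encode chaperones, and 5 of 23 (21.7%, 9.66 to 41.9%) had a shared start peak, with 13 of the 23 starts in SMARCAD1 peaks of any kind and 21 in CBP peaks. Hsp26, a small chaperone gene, had a SMARCAD1 peak of 952 and 419 bp within a CBP peak of 1100 and 554 bp. The mitochondrial chaperonin gene Hsp60 had downstream reaches that differed by 1 bp, 1461 bp for SMARCAD1 and 1462 bp for CBP. At Hsc70-3, the gene for the chaperone of the endoplasmic reticulum, the SMARCAD1 reaches were 2741 and 2129 bp and those of CBP 2293 and 2357 bp. Hsp70Ab and Hsp70Bb also met the rule, but they are near-identical copies of other Hsp70 genes, and which copy the reads came from is uncertain.

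Cytosolic ribosomal protein genes are highly transcribed in growing cells, and 7 of 89 (7.87%, 3.86 to 15.4%) had a shared start peak, against 34 of 89 starts in any SMARCAD1 peak and 63 in any CBP peak. In 6 of the 7 the SMARCAD1 centre was more upstream than the CBP centre, with differences of -79 bp at RpS24, -85 bp at RpS4, -95.5 bp at RpL27, -165.5 bp at RpL23A, -182.5 bp at RpS3 and -201 bp at RpS10b. The exception was RpS5a, with 874 bp, where CBP reached 1634 bp upstream of the annotated start and SMARCAD1 97 bp. The CBP partner there covered divergent starts, which the rule barred for SMARCAD1 peaks. Among genes for mitochondrial ribosomal proteins, 4 of 73 (5.48%, 2.15 to 13.3%) were covered, and at mRpL28, mRpL19, mRpL9 and mRpL45 the CBP peak lay within the SMARCAD1 peak. Their centres differed by 29, 29, 25.5 and -40.5 bp, less than at the cytosolic ribosomal protein genes.

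Of the genes for acetyltransferases, deacetylases and their partners, 3 of 26 (11.5%, 4.003 to 28.98%) had a shared start peak. These were mof, the H4 acetyltransferase of dosage compensation, Ada2b, an adaptor of the SAGA complex, and E(Pc), a subunit of the Tip60 complex. SMARCAD1 was the more upstream at all 3, by differences of -164, -138.5 and -142 bp. The polymerase II machinery had 2 of 56 (3.57%, 0.985 to 12.1%), close to the background, with RpII18, a subunit shared by the polymerases, and CG3508, the fly Hexim that inhibits P-TEFb. Mediator had 2 of 29 (6.90%), MED4 and MED15, and MED15 had a SMARCAD1 reach of 7185 bp upstream against 4540 bp for CBP. Translation factors had 4 of 36 (11.1%, 4.41 to 25.3%), namely CG7414 (eIF2A), eIF3-S9, Ef1gamma and Thor, the 4E-BP gene. At Thor the CBP peak extended 2512 bp and SMARCAD1 466 bp downstream of the start. Thor is 1179 bp long, so its CBP peak held the whole gene, which the rule barred for SMARCAD1 peaks. Insulator and promoter factors had 1 of 18 (row) and the Hippo pathway 1 of 24, the growth regulator gene Mer.

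No start of the 23 chromatin remodeller genes, the 33 proteasome genes, the 21 ecdysone response genes, the 8 Hox genes or 6 genes taken from the study's text had a shared start peak. The last list holds a selection of the genes the study mentions, and 1 further symbol on it was not matched on these arms. The upper Wilson bounds are 14.3, 10.4, 15.5, 32.4 and 39.0%, each above the background of 3.65%, so lists of this size could not show an absence. Peaks of other kinds were present at some of them, and 8 remodeller and 10 proteasome starts lay in a SMARCAD1 peak that did not meet the rule. At the Hox genes, which encode the transcription factors of segment identity, 0 of 8 starts were in any SMARCAD1 or CBP peak.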

How the data were processed

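Peak tables of the anti-SMARCAD1 and anti-CBP libraries were used. According to the sources, reads were aligned with BWA by the authors, who then ran MACS against a control for each library and ChIPpeakAnno to assign genes. The methods give a single P cut-off for MACS, on which peak numbers, widths and overlaps depend. No other cut-off could be tried here. The deposited tables give positions, widths and distances in bp and hold no counts, scores or other strengths, and no table of the input was used. Depth is unknown. The methods name dm6, but the Release 6 start or end was found for 27 of 63 matched genes with a shared peak on 2L, 0 of 105 on 2R, 11 of 93 on 3L, 0 of 112 on 3R and 0 of 133 on X. The tables may therefore be on another release, and coordinates are printed as they give them without a build. They also give 1 name as a date (1-Sep).

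Overlap counted from 1 bp. Distances were oriented along the gene, from the covered start nearest the SMARCAD1 centre. Wilson and binomial 95% intervals came from scipy 1.17.1 and numpy 2.4.6, run with pandas 2.3.3 under Python 3.11.15, and the geometry was tested on simulated data. Of 519 genes, 506 were matched to RefSeq symbols. The regions and gene lists were chosen with earlier results of these data known. The genes named are the 3 at each extreme of width, centre difference and overlap, the 3 with the closest centres, those with most starts, and listed genes, the first 4 of a list with values. Values beyond these 4, genes with 3 CBP peaks or a shared partner, and the genes of the closing section were chosen after their values were seen. The alternatives were stricter overlap, another reference start or partner, and subsets of the peaks.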

Additional observations from a re-analysis of the deposited data

How the results depend on the processing

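Of 229 recomputed values, 213 stayed within the interval of the value reported, or within 1.5 times for counts, 16 moved outside it and none changed sign. Many could hardly change, since 507 of the 513 peaks covered 1 start and 483 met 1 CBP peak. Some values, such as SMARCAD1 width, do not depend on the start or the partner at all. The tally is therefore no measure of robustness. When the overlap had to make up 50% or more of each peak, 443 regions (54.4% of 814) were left, and their CBP partner covered the start in 96.2%. Requiring centres within 200 bp left 334 (41.03%), and requiring a CBP peak over a covered start left 487 (59.8%). On the plus strand SMARCAD1 reached 615 bp downstream and CBP 500 bp, and on the minus strand 856 and 683 bp. After SMARCAD1 peaks were shortened at both ends, a choice made after seeing the data, CBP lay within them in 27.7%. The centre difference was -14 bp without X and -19 bp on the plus strand, where its interval (-38.5 to 0.5 bp) held 0. No paired analysis was possible because there were no replicates to pair. The search for promoter motifs was not run, since no promoter sequence was used here. Depth, replicate error and peak strength are unknown, which limits every value above.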

Other observations

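Other genes with shared start peaks, picked by their roles after the names and values were seen, add to the lists. Of enzymes of glycolysis, Ald had SMARCAD1 and CBP reaches of 3620 and 3485 bp into the gene, while Gapdh2, Hex-A and Pgk had peaks mostly upstream. SMARCAD1 reached 5358 bp upstream and 366 bp downstream at Gapdh2, with CBP at 3292 and 406 bp. At Hex-A the SMARCAD1 reaches were 2131 and 55 bp, within CBP reaches of 2197 and 280 bp. Tpi, another gene of glycolysis, had a SMARCAD1-only start peak, with the nearest CBP peak 33772 bp away. Neither the glycolysis genes nor the syntaxin genes below were counted against a full list, so no proportion is given. The syntaxin genes Syx1A, Syx4, Syx13 and Syx17, which encode proteins of membrane fusion, had centre differences of -39, 71.5, -369 and 66 bp.

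CrebB-17A, which encodes the fly CREB, a transcription factor of the family for which CBP was named, had SMARCAD1 reaches of 1546 and 1413 bp and CBP reaches of 1427 and 1290 bp, and the centres differed by 2 bp. At th, the gene of the apoptosis inhibitor Diap1, both peaks extended into the gene, by 2957 and 2930 bp. At brk, a repressor of Dpp targets, CBP reached 3874 bp upstream and SMARCAD1 3156 bp.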
